A study of Mus musculus with 12 samples.

Results

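The 37 genes described here encode the machinery that copies DNA in S phase. They were taken by gene symbol from a table of 46078 mouse genes, and all 37 were found there, each under a single identifier. Every one of them also passed the filter on low counts that left 14582 genes for testing; their counts ran from 16 (Mcm10 in control 1) to 2525 per library. Polyadenylated RNA of skin epidermis from newborn mice was sequenced in 12 libraries, in 4 genotype groups of 3. All mice carried K14-Cre, a transgene in which the keratin 14 promoter drives Cre recombinase in basal keratinocytes. Controls carried K14-Cre alone. Llgl cKO mice also had floxed alleles of Llgl1 and Llgl2 (K14-Cre/Llgl1/2 flox/flox), which encode cell polarity proteins. Trp53 het mice had 1 floxed allele of Trp53 (K14-Cre/Trp53 +/flox), the p53 tumour suppressor gene, and Llgl cKO Trp53 het mice had both changes, with K14-Cre, floxed Llgl1/2 and Trp53 +/flox. The comparisons asked how Llgl1/2 loss altered epidermal gene expression with Trp53 intact and with an allele deleted. In these bulk samples, a difference in the number of cells in S phase and a difference in replication RNA per cell cannot be told apart.

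Replication origins are licensed before S phase when Cdc6 and Cdt1 load the MCM helicase onto DNA. The helicase is then activated by Cdc45 and the GINS complex, and polymerases, held by the Pcna clamp, copy both strands while ribonucleotide reductase and thymidylate synthase supply the precursors. Most of these genes are transcribed in late G1 and S phase under E2F transcription factors, and in epidermis such transcripts come chiefly from cycling basal keratinocytes and from the hair matrix.

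The choice of genes by symbol did not use their promoters, so promoter sequences are shown first. RefSeq promoter windows (GRCm38.p6, 250 bases before to 50 after a start site) were found for 30 of the 37 genes, in 35 windows. A window was scored for the E2F letters TTTCCCGC, TTTCGCGC, TTTGCCGC or TTTGGCGC on either strand. They occurred in 12 of the 30 genes (40%) and were lacking in the other 18, against 704 of 27025 genes with a window (2.6%) and 1 of 26 G2 and M phase genes (3.85%). The windows held 18 matches, 11 beginning before the start site and 7 after it, from -185 to 40 bases. Some matches overlapped, because the letters can be read on both strands. The CCAAT letters, in either orientation, were in 63.3% of the replication genes and in 41.1% of all genes. The letters TTTGAA, found in the cell cycle homology region of G2 and M phase promoters, were in 13.3% of replication genes, 73.1% of G2 and M phase genes and 20.2% of all genes. A match describes letters only and was not tested for binding.

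The stretches below are the 200 bases before a RefSeq start site, 5′ to 3′ on the strand of the gene, with E2F letters in capitals. All 6 were free of annotated exons. The first 4 hold the letters, and they belong to the helicase subunits Mcm5 and Mcm6, the catalytic polymerase alpha subunit Pola1 and the methylation maintenance factor Uhrf1. Uhrf1 also had a window at another start site (chr17:56303087-56303386), which held 0 matches and is not shown. Mcm10 and Mcm2 are shown as examples of genes whose levels spanned a wide range while their stretch lacks the letters. The scored Mcm10 window, which runs past this stretch, ends in TTTGGCG, so a TTTGGCGC match across its edge would not be counted.
Mcm5, chr8:75109309-75109508, plus strand: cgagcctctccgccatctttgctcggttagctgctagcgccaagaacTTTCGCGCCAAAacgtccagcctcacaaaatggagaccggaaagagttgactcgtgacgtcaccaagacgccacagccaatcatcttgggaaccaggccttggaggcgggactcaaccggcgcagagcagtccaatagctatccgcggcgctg
Mcm6, chr1:128359706-128359905, minus strand: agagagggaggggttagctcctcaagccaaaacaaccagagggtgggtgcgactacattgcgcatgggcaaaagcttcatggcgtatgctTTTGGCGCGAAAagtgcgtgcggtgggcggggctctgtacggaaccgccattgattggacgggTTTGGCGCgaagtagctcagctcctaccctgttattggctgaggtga
Pola1, chrX:93632156-93632355, minus strand: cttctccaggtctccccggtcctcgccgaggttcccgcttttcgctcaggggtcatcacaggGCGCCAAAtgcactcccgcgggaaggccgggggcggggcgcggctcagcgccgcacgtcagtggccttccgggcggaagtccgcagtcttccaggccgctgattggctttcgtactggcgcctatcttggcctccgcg
Uhrf1, chr17:56304113-56304312, plus strand: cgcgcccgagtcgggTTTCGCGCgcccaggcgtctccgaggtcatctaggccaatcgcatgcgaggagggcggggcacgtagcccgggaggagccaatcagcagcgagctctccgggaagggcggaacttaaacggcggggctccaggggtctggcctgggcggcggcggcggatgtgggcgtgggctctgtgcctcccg
Mcm10, chr2:5012792-5012991, minus strand: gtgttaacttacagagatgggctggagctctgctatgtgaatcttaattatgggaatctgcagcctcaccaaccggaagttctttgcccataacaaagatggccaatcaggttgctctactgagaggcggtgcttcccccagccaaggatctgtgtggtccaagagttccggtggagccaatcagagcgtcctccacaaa
Mcm2, chr6:88898781-88898980, minus strand: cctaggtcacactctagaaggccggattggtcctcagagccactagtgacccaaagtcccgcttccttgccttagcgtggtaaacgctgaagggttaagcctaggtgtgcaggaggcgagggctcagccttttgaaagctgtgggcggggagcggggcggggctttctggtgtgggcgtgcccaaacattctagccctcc

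Depth was 6738720 to 14509507 counts per library, lowest in control 1 and Trp53 het 2. Basal keratinocyte markers summed to 15300 to 21400 CPM (counts per gene relative to the library total scaled by TMM) over the 12 libraries, and suprabasal markers to 58600 to 113000 CPM, as the tissue label states. Of the targeted genes, Llgl2 had a log2 change of -3.40 with Llgl cKO (adjusted p = 9.54e-06), whereas Llgl1, whose counts do not separate the floxed exons, rose by 0.79 (adjusted p = 0.00723). Trp53 was at 61.8 and 60.9 CPM in Trp53 het 1 and 2, but at 115 in the library with the Trp53 het 3 label, inside the control range.

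The summed level of the 37 genes varied more among libraries with intact Llgl than between genotypes. It was 753, 1146 and 2592 CPM in control 1 to 3 and 968.3, 1001 and 2462 in Trp53 het 1 to 3. The values were 1366, 1867 and 1841 CPM with Llgl cKO and 1882, 1335 and 2023 with Llgl cKO Trp53 het. The highest 2 libraries were control 3 and Trp53 het 3, and the 4 remaining libraries with intact Llgl lay below all 6 Llgl cKO libraries. Low and high libraries with intact Llgl are thus named by the level of these same genes. A position above the low 4 is therefore description only, here and for the single genes below. Against all 6 libraries with intact Llgl, 0 of the 37 genes were higher without overlap in the 6 Llgl cKO libraries, while 1.29% of all tested genes were. Means were 1497 ± 968.4 CPM (SD, n = 3) for controls, 1477 ± 853.1 for Trp53 het, 1691 ± 282 for Llgl cKO and 1747 ± 363.4 for Llgl cKO Trp53 het. The SD was thus 64.7% and 57.8% of the mean in the groups with intact Llgl and 16.7% and 20.8% in the Llgl cKO groups.

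**Figure D1:**
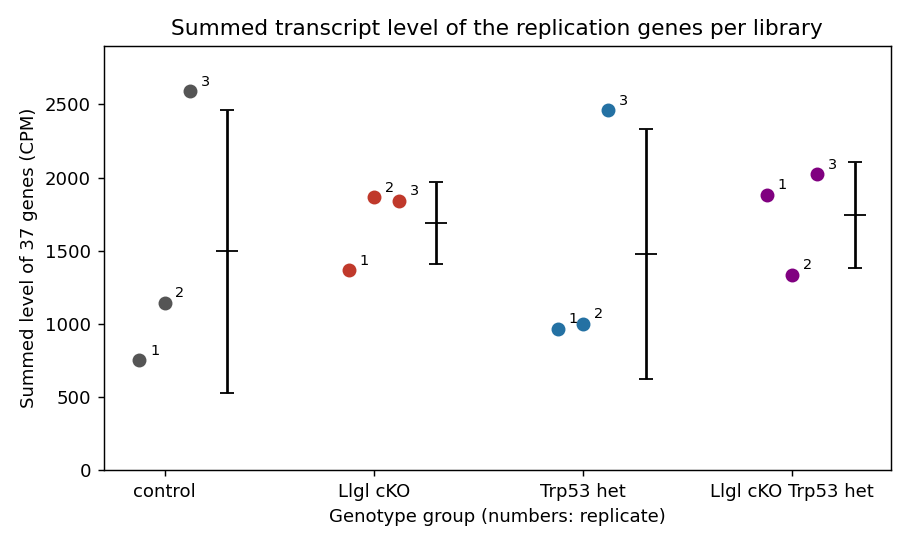
Summed CPM of the 37 replication genes (y axis) in each library (points, numbered by replicate) of the 4 genotype groups, with the mean and SD of each group (black bars, n = 3). Control 3 and Trp53 het 3 stand at 2592 and 2462 CPM, and the other 4 libraries with intact Llgl lie between 753 and 1146, below the Llgl cKO libraries (1335 to 2023).

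This order was shared by nearly all of the genes. The 2 highest values came from control 3 and Trp53 het 3 for 32 of the 37 genes (86.5%), against 1523 of 14582 tested genes (10.4%). Control 3 was the highest library for 27 genes, Trp53 het 3 for 8 and Llgl cKO Trp53 het 3 for Gins4 and Rfc3. These libraries were the highest for 9.53%, 9.75% and 9.46% of all tested genes. Control 1 was the lowest for 29 genes. It was also the lowest for 16% of all tested genes and the highest for another 16%, the largest share of any library in each direction. The median SD within groups was 0.59 on the log2 scale for the replication genes and 0.26 for all tested genes.

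**Figure D2:**
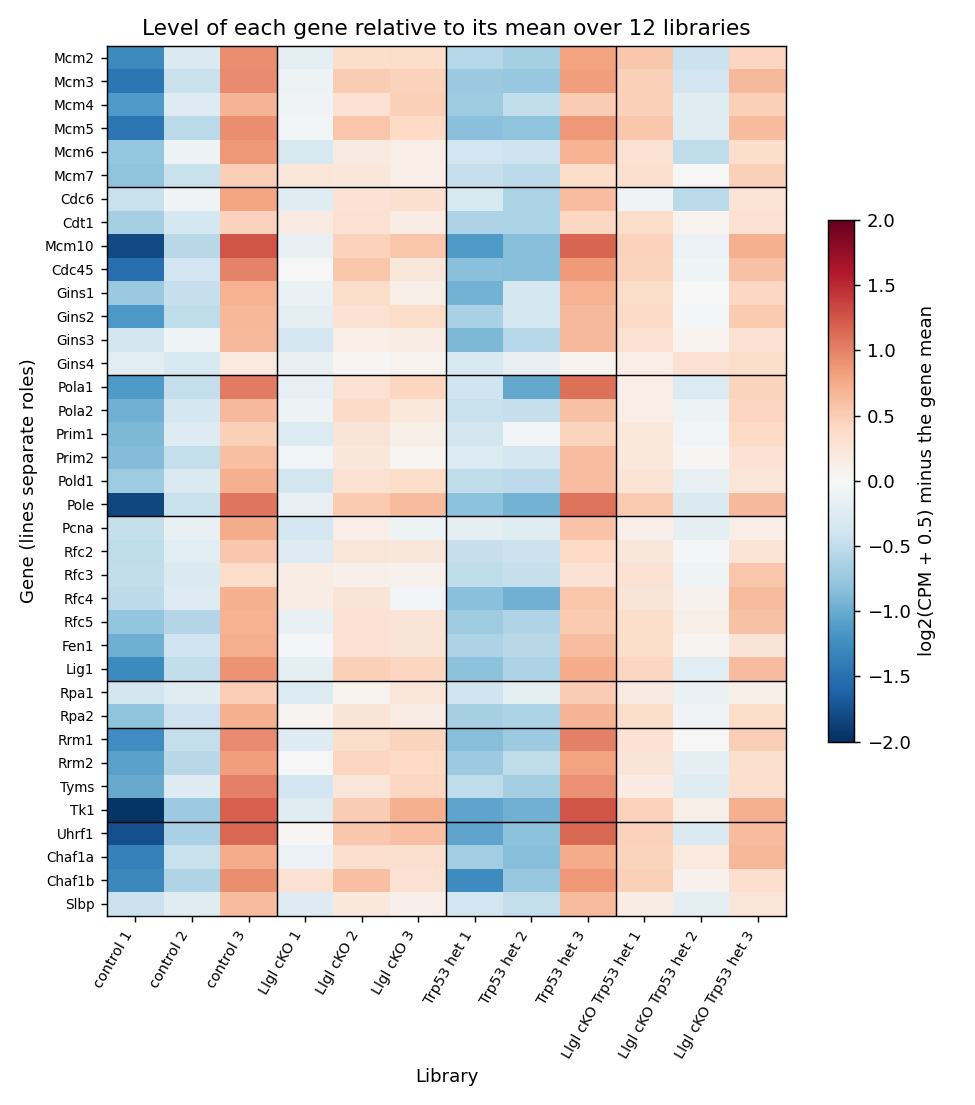
Level of each of the 37 genes (rows, grouped by role) in each library (columns), as log2(CPM + 0.5) minus the mean of the gene over 12 libraries. Control 3 and Trp53 het 3 are high and control 1 is low in almost every row, while Gins4 varies little.

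Markers of other cell types differed between the same libraries, and their part in the result was not tested. The summed level of 7 hair matrix and hair shaft markers, all detected in every library, was 4703, 3311 and 1101 CPM in control 1 to 3 and 3839, 3094 and 1594 in Trp53 het 1 to 3. It was 777 to 2300 CPM in Llgl cKO and 211 to 393 in Llgl cKO Trp53 het. The lowest hair marker levels of these groups were thus in control 3 and Trp53 het 3. The 6 fibroblast markers ran the other way, at 142.9 and 138.4 CPM in control 3 and Trp53 het 3, 27.8 to 57.31 in the other libraries with intact Llgl and 122 to 239 in the Llgl cKO groups; Col3a1 and Lum were at 0 in some libraries. The 5 adipocyte markers were at 2.096 and 2.785 CPM in those 2 libraries, 13.08 to 29.11 in the other 4 and 0.335 to 3.86 in the Llgl cKO groups, with Adipoq, Cidec and Plin1 at 0 in some. The 6 T cell markers summed to 12.09 and 5.947 CPM in those 2, 19.13 to 30.38 in the other 4 and 0.921 to 11.1 in the Llgl cKO groups, with Cd247 and Cd7 at 0 in some. Langerhans cell and macrophage markers summed to 128 and 127.9 CPM in those 2, 69.33 to 88.37 in the other 4 and 67.1 to 219 in the Llgl cKO groups, and Cd207 was at 0 in some libraries. Melanocyte markers were at 451.5 and 507.2 CPM in those 2, 270.1 to 384.5 in the other 4 and 223 to 573 in the Llgl cKO groups. Endothelial markers were at 1.29 CPM or less in every library. Erythroid markers were at 10.01 CPM in Trp53 het 3 and at 2.78 or less in the rest. Depth was 11739107 and 12479062 counts in control 3 and Trp53 het 3, 6738720 and 6901424 in control 1 and Trp53 het 2, and 11692573 and 11696252 in control 2 and Trp53 het 1; its part was not tested either. Control 1 also had the lowest sum of mitochondrial transcripts, 7503 CPM against 10250 to 15200 in the others. By Xist, a transcript of the inactive X chromosome, control 3 and Trp53 het 3 were female (1410 and 1370 CPM), as was control 2 (1290 CPM), which was low for the replication genes. Llgl cKO 1 and Llgl cKO Trp53 het 1 also had Xist (668 and 883 CPM), and the remaining libraries were at 5.02 CPM or less. Sex was not included in the fits, and its part was not tested.

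The 6 MCM subunits form the ring helicase that unwinds DNA at the fork. Mcm2 (ENSMUSG00000002870, chromosome 6, 88883474 to 88898780, GRCm38) was at 28.4, 57.1 and 133 CPM in control and 61.6, 89.0 and 90.2 in Llgl cKO. It stood at 46.9, 44.0 and 122 in Trp53 het and at 101, 51.4 and 94.1 in Llgl cKO Trp53 het, so that all groups overlapped. Its log2 change averaged over the Trp53 genotypes (Llgl cKO groups against the others, 6 libraries each, termed the average Llgl effect) was 0.17 (95% interval -0.65 to 0.99, adjusted p = 0.858). Mcm7 (chromosome 5, 138164583 to 138172422) had the smallest p of the 6. Its levels were 52.8, 68.2 and 131 CPM in control, 67.3, 64.5 and 120.2 in Trp53 het, 111, 109 and 102 in Llgl cKO and 117, 93.1 and 129 in Llgl cKO Trp53 het. All 6 Llgl cKO libraries lay above the 4 libraries with intact Llgl that were low in the summed level. Control 3 was the highest of the 12. The average Llgl change of Mcm7 was 0.39 (-0.10 to 0.88, adjusted p = 0.400). Exons of Mcm7 overlap those of Ap4m1 and Cops6 on the opposite strand and hold Mir25 and Mir93. Exons of Cdc45, Chaf1a, Fen1, Gins2, Lig1, Pole, Rfc2, Rfc4, Rfc5, Rpa1, Slbp and Tk1 also overlap another gene. Reads there cannot be assigned with certainty, because the strand setting of the counting is not given in the sources used here. Mcm6 was at 59.5, 95.6 and 187 CPM in control and 81.8, 116 and 112 in Llgl cKO. Trp53 het libraries had 78.1, 76.7 and 166 CPM of Mcm6, against 126, 71.6 and 130.2 with Llgl cKO Trp53 het. The average Llgl change of -0.06 for Mcm6 (-0.72 to 0.59, adjusted p = 0.941) was the only negative one in the helicase, where the median was 0.32.

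Loading and activation of the helicase is the work of 8 further genes, whose median average Llgl change was 0.24, with 7 positive values and a negative one, Cdc6. Cdt1, the licensing factor that is destroyed once S phase starts, was at 19.3, 24.0 and 42.4 CPM in control and 35.0, 38.1 and 34.3 in Llgl cKO. Its levels were 19.9, 19.8 and 41.4 CPM in Trp53 het and 40.0, 32.5 and 38.0 in Llgl cKO Trp53 het. Cdt1 showed the common pattern, with the Llgl cKO libraries between the low and high libraries with intact Llgl (average log2 change 0.38, -0.11 to 0.86, adjusted p = 0.406). Mcm10, an initiation factor that is not part of the MCM ring, had among the widest ranges, from 2.62 CPM in control 1 to 25.6 in control 3.

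Gins4, a subunit of the GINS complex, departed from that pattern. It was at 17.2, 16.0 and 23.1 CPM in control, 16.2, 17.7 and 21.0 in Trp53 het, 17.9, 20.3 and 21.1 in Llgl cKO and 22.1, 24.9 and 25.6 in Llgl cKO Trp53 het. The last group lay above Trp53 het and above Llgl cKO without overlap and overlapped control through control 3. Gins4 was the only replication gene without overlap in these comparisons, where 9.75% and 5.84% of all tested genes were higher without overlap. Its log2 change in Llgl cKO Trp53 het was 0.36 against control (adjusted p = 0.348) and 0.40 against Trp53 het (adjusted p = 0.267), and neither passed the threshold of 0.05. The other 3 GINS genes, which encode the rest of the complex, had control 3 or Trp53 het 3 as their highest library.

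Among the 6 polymerase and primase genes the average Llgl change was positive for all 6, with a median of 0.14. Pola2, the regulatory subunit of the polymerase alpha-primase complex that lays down primers, was at 13.4, 21.0 and 41.9 CPM in control and 24.7, 34.6 and 30.6 in Llgl cKO. It was at 19.4, 19.2 and 40.0 CPM in Trp53 het and 29.2, 24.6 and 36.1 in Llgl cKO Trp53 het. Pold1, the catalytic subunit of the lagging strand polymerase delta, was at 24.5, 33.0 and 66.7 CPM in control and 31.3, 49.9 and 52.5 in Llgl cKO. Its levels were 28.3, 28.1 and 62.5 CPM in Trp53 het and 48.8, 36.5 and 47.6 in Llgl cKO Trp53 het. For both genes the Llgl cKO libraries fell inside the range of the libraries with intact Llgl, and the average log2 changes were 0.21 for Pola2 (adjusted p = 0.748) and 0.13 for Pold1 (adjusted p = 0.858). Pole, the catalytic subunit of leading strand polymerase epsilon, spanned 8.34 CPM in control 1 to 66.0 in Trp53 het 3.

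The sliding clamp Pcna (ENSMUSG00000027342, chromosome 2, 132249162 to 132253314) had the lowest average Llgl change of the 37 genes, -0.16 (-0.62 to 0.31, adjusted p = 0.755). Its levels were 61.1, 76.8 and 143 CPM in control, 75.2, 71.8 and 127 in Trp53 het, 66.7, 94.0 and 79.5 in Llgl cKO and 91.4, 74.5 and 93.4 in Llgl cKO Trp53 het. That rank depended on whether the counts of its pseudogene Pcna-ps2 (described next) were added. With the counts of both summed, a choice made after seeing the data, the change was -0.03 (-0.51 to 0.45, adjusted p = 0.967), and Cdc6 was the lowest. Unlike Mcm7 and Cdt1, Pcna in Llgl cKO libraries overlapped even the low libraries with intact Llgl. Rfc3, a subunit of the clamp loader, was at 19.6, 22.8 and 36.1 CPM in control and 31.1, 29.96 and 29.7 in Llgl cKO. Trp53 het libraries had 19.6, 20.1 and 34.0 CPM of Rfc3, and Llgl cKO Trp53 het libraries 34.5, 26.1 and 41.0. Llgl cKO Trp53 het 3 was the highest library for Rfc3, and the average log2 change was 0.33 (-0.08 to 0.74, adjusted p = 0.386). The clamp, loader, flap nuclease and ligase genes together had a median change of 0.31, and 6 of the 7 were positive.

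A gene annotated as a processed pseudogene of Pcna behaved differently from Pcna itself; it lies outside the 37 genes and was chosen after its values were seen. Pcna-ps2 (ENSMUSG00000067608, chromosome 19, 9283380 to 9284160, a single exon of 781 bases) had 0, 3 and 7 counts in control and 4, 0 and 12 in Trp53 het. It had 88, 121 and 182 counts in Llgl cKO, and 102, 4 and 112 in Llgl cKO Trp53 het. Counts were therefore high in 5 of the 6 Llgl cKO libraries and low in Llgl cKO Trp53 het 2. The average Llgl effect was 4.27 on the log2 scale (SE 0.773, adjusted p = 0.0164). The call was lost without control 2 (adjusted p = 0.0575) and with no filter on low counts (0.0534). Of the counts of Pcna and its copy together, the copy took 8.05% to 16.8% in those 5 libraries, 0.456% in the sixth and 0% to 0.706% in the libraries with intact Llgl. How reads shared with such a copy were assigned is not given in the sources used here, so these values are uncertain for both genes. Summed over both, the level was 91.4 ± 13.9 CPM in the Llgl cKO libraries and 92.8 ± 34.1 in the others (SD, n = 6 each).

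The single-strand binding protein RPA coats unwound DNA, and its genes differed in span. Rpa1, the large subunit, was at 48.1, 52.6 and 87.7 CPM in control, 47.1, 55.1 and 89.2 in Trp53 het, 51.5, 65.8 and 74.1 in Llgl cKO and 70.8, 56.7 and 68.2 in Llgl cKO Trp53 het. Rpa2, the middle subunit, was at 15.04, 19.9 and 43.8 CPM in control, 16.5, 17.0 and 42.7 in Trp53 het, 27.6, 32.0 and 29.3 in Llgl cKO and 34.5, 25.2 and 34.3 in Llgl cKO Trp53 het. The 6 Llgl cKO libraries lay above the 4 low ones for Rpa2 but not for Rpa1. Average Llgl changes were 0.02 for Rpa1 (adjusted p = 0.968) and 0.23 for Rpa2 (adjusted p = 0.738).

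Nucleotide supply genes showed some of the widest ranges. Rrm1 encodes the large subunit of ribonucleotide reductase, and was at 37.1, 63.2 and 171 CPM in control and 73.8, 113 and 121 in Llgl cKO. It was at 48.7, 52.9 and 178 CPM in Trp53 het and 107, 88.6 and 124 in Llgl cKO Trp53 het. Rrm2, the S phase subunit of that enzyme, was at 19.0, 27.5 and 73.2 CPM in control, 24.5, 28.3 and 71.6 in Trp53 het, 40.6, 54.8 and 53.8 in Llgl cKO and 48.6, 35.4 and 50.9 in Llgl cKO Trp53 het. For both subunits every Llgl cKO library lay between the low and the high libraries with intact Llgl. The average log2 changes were 0.18 for Rrm1 (adjusted p = 0.856) and 0.21 for Rrm2 (adjusted p = 0.801). Tk1, the thymidine salvage kinase, had the widest range of the 37 genes, from 6.87 CPM in control 1 to 67.7 in Trp53 het 3.

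Uhrf1, which guides DNA methylation onto new strands, was at 25.0, 54.9 and 192 CPM in control and 87.1, 125 and 131 in Llgl cKO. Its levels were 40.9, 48.7 and 190.1 CPM in Trp53 het and 119, 70.5 and 134 in Llgl cKO Trp53 het. Chaf1a, the large subunit of the chromatin assembly factor that deposits histones behind the fork, was at 13.7, 26.0 and 60.1 CPM in control and 32.9, 45.4 and 44.6 in Llgl cKO. Trp53 het libraries had 21.8, 19.6 and 59.9 CPM of Chaf1a, and Llgl cKO Trp53 het libraries 48.9, 41.2 and 56.7. Both genes again placed the Llgl cKO libraries between the low and high libraries with intact Llgl. Average changes were 0.26 for Uhrf1 (-0.83 to 1.35, adjusted p = 0.828) and 0.40 for Chaf1a (-0.38 to 1.19, adjusted p = 0.603). Chaf1b, the partner of Chaf1a, had the highest average Llgl change of the 37 genes, 0.40 (adjusted p = 0.660).

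The span over libraries, taken as the highest over the lowest CPM, separated the genes further. It was 9.85 for Tk1, 9.77 for Mcm10, 7.91 for Pole, 7.67 for Uhrf1 and 6.07 for Cdc45, which brings the helicase into its active form. At the other end it was 1.603 for Gins4, 1.90 for Rpa1, 2.08 for the clamp loader subunit Rfc2 and 2.10 for Rfc3. The median was 3.34 for the replication genes and 1.88 for all tested genes. Genes with E2F letters in a window had a median span of 3.22 (n = 12), and those with a window lacking them 3.60 (n = 18). Per kilobase of merged exons, Pcna had the highest mean level over the 12 libraries (36.6 CPM per kb), ahead of Uhrf1 and Mcm4 (both 23.8), Mcm6 (23.2), Mcm7 (21.9) and Mcm5 (21.8). Mcm10 (1.62 CPM per kb) and Gins3 (2.18) were the lowest. Merged exons pool all annotated transcripts of a gene, so this ranking depends on the annotation as well as on the level. Mcm2, for example, has 6956 merged bases and Mcm5 3993.

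**Figure D3:**
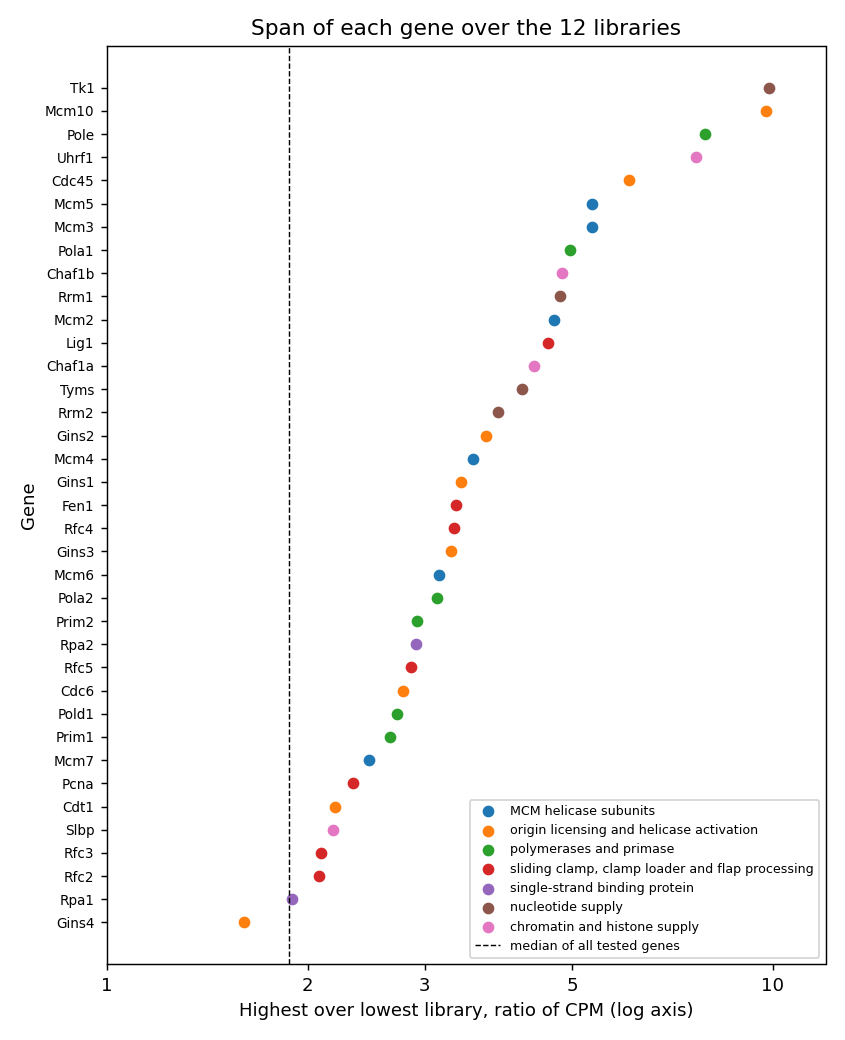
Highest over lowest CPM among the 12 libraries (x axis, log scale) for each of the 37 genes (y axis), coloured by role, with the median of all tested genes dashed. Tk1 and Mcm10 span 9.85 and 9.77, and only Gins4 (1.603) lies below the median of all genes (1.88).

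None of the 37 genes was called (adjusted p below 0.05 over all genes tested, edgeR quasi-likelihood test) in any of the 8 comparisons. The share of all tested genes called was 0.226% for Llgl cKO against control, 1.25% for Llgl cKO Trp53 het against control, 1.36% for Llgl cKO Trp53 het against Trp53 het and 3.33% for the average Llgl effect. It was 0% for Trp53 het against control, Llgl cKO Trp53 het against Llgl cKO, the average Trp53 effect and the interaction. At an unadjusted p below 0.05 the count of replication genes was 1 (Gins4) against control and 1 (Gins4) against Trp53 het for Llgl cKO Trp53 het, where 13.9% and 15.4% of all genes passed, and 0 in the other 6 comparisons. There, the share of all genes was 6.31% for Llgl cKO against control, 0.432% for Trp53 het against control, 5.12% for Llgl cKO Trp53 het against Llgl cKO, 18.2% for the average Llgl effect, 2.17% for the average Trp53 effect and 2.94% for the interaction. DESeq2 also called 0 of the 37 in each. With all 12 libraries, the median SE of a log2 change was 0.42 for the replication genes and 0.22 for all genes in Llgl cKO against control.

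The fitted changes were mostly positive with Llgl cKO, but single libraries turned the direction of several medians. The median log2 change was 0.18 in Llgl cKO against control, with 31 of 37 genes positive, and 0.26 in Llgl cKO Trp53 het against control, with 33 positive. Against Trp53 het it was 0.27, with 33 positive, and in the average Llgl effect 0.23, with 33 positive. Medians over all tested genes were within 0.01 of 0 in these comparisons, several of which share the same control libraries. The share of all tested genes that was positive was 48.8%, 49%, 50.2% and 49.6%, in the same order. Because the replication genes rose and fell together over the same libraries, their counts of positive changes are not independent observations. Trp53 het against control gave -0.04, with 12 positive, Llgl cKO Trp53 het against Llgl cKO 0.06, with 28 positive, the average Trp53 effect 0.01, with 20 positive, and the interaction 0.08, with 27 positive. Here 46.9%, 49.8%, 47.2% and 51% of all tested genes were positive. Leaving out 1 library moved the median of Llgl cKO against control between -0.11 (without control 1) and 0.82 (without control 3), and that of Llgl cKO Trp53 het against control between -0.073 and 0.90 (without the same libraries). For Trp53 het against control it ran from -0.66 without Trp53 het 3, the library whose Trp53 level lay in the control range, to 0.60 without control 3. In the average Llgl effect the median stayed positive, from 0.05 without control 1 to 0.55 without control 3, but 13 of the 37 genes turned sign in at least 1 of the 12 fits.

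The counts of calls depended on control 3 and Trp53 het 3. When both were left out, the replication genes called higher numbered 6 in Llgl cKO against control (2.8% of 14761 genes called, 1.61% higher), 18 in Llgl cKO Trp53 het against control (7.72% called, 3.63% higher) and 15 against Trp53 het (7.37% called, 3.6% higher). In the average Llgl effect 32 were higher and 0 lower, against 15.8% of all genes called and 8.03% called higher, with a median log2 change of 0.87. Since these were the 2 highest libraries of their groups on these genes, their removal raises the differences by construction, and nothing further is read from these counts. The counts were 0 for Trp53 het against control and Llgl cKO Trp53 het against Llgl cKO (0.00677% of all genes in each), the average Trp53 effect (0.0135%) and the interaction (0%).

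**Figure D4:**
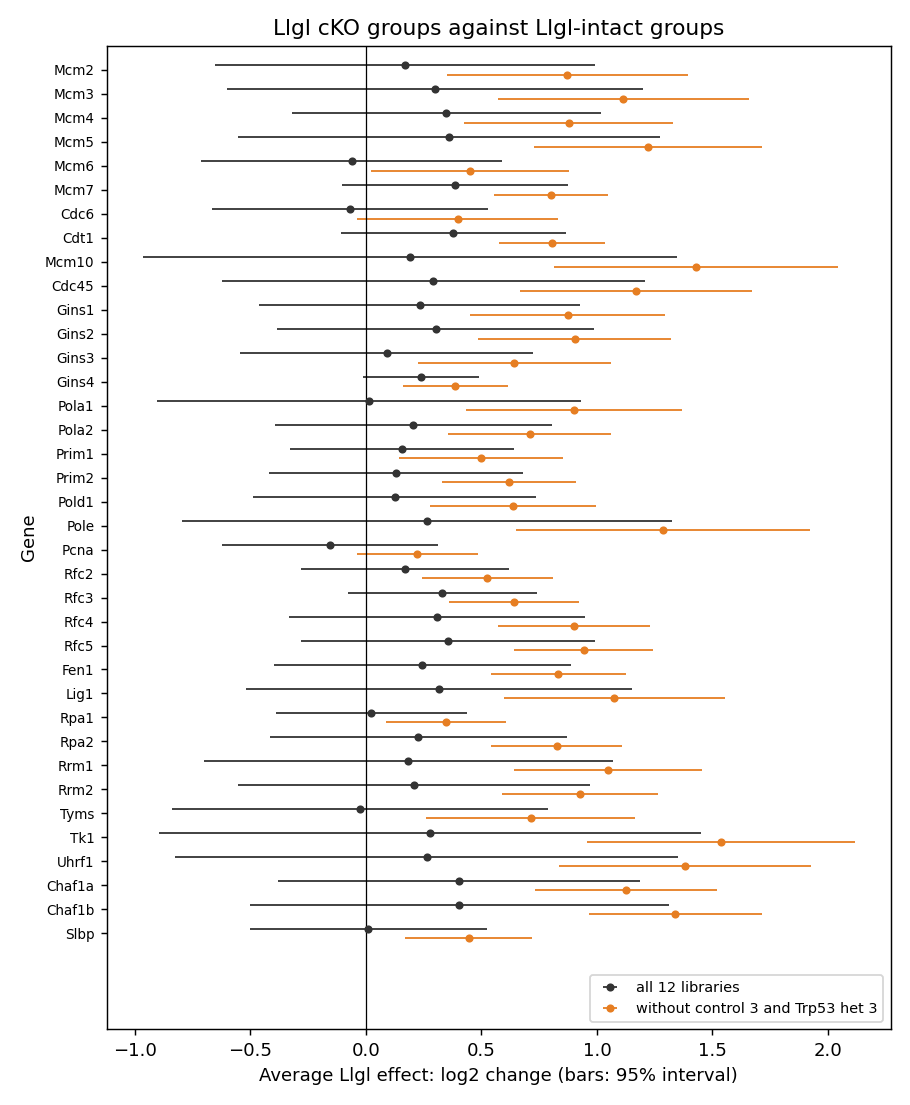
Log2 change of each gene in the average Llgl effect (x axis, with 95% intervals) using all 12 libraries (dark) and without control 3 and Trp53 het 3 (orange). With all libraries every interval includes 0; without the 2 highest libraries the median moves from 0.23 to 0.87, a shift that follows from leaving out the highest libraries.

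The composition of the replication transcripts was next compared as each gene's share of the summed level, which sets that total equal in every library. Shares could still differ with the level. Pcna took 8.12% in control 1 and 5.52% in control 3, and Uhrf1 took 3.32% and 7.40%. Mcm6 was the only gene of the 37 whose share did not overlap between the 6 Llgl cKO libraries and the 6 others. It took 7.90%, 8.34% and 7.23% in control, 8.07%, 7.66% and 6.75% in Trp53 het, 5.99%, 6.20% and 6.08% in Llgl cKO, and 6.69%, 5.37% and 6.43% in Llgl cKO Trp53 het. The means were 6.13% ± 0.452 and 7.66% ± 0.583 (SD, n = 6 each), a ratio of 0.80. Among all tested genes, taken over the same total, 0.494% were lower without overlap and 0.261% higher. Dividing by this total adds its variation to genes that do not follow it, so these percentages are not a like background for Mcm6. Mcm6 was also picked as the extreme of 37 genes, and its ranges nearly touched, at 6.69% and 6.75%. Pcna took 4.88% ± 0.425 in the Llgl cKO libraries and 6.74% ± 1.20 in the others (ratio 0.72), but the ranges overlapped, at 4.32% to 5.58% and 5.16% to 8.12%. With the counts of Pcna-ps2 added, its share was 5.31% ± 0.206 and 6.76% ± 1.19 (ratio 0.786). The lowest shares of Pcna alone with intact Llgl were again in control 3 (5.52%) and Trp53 het 3 (5.16%), whereas Mcm6 stayed above the Llgl cKO range there.

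**Figure D5:**
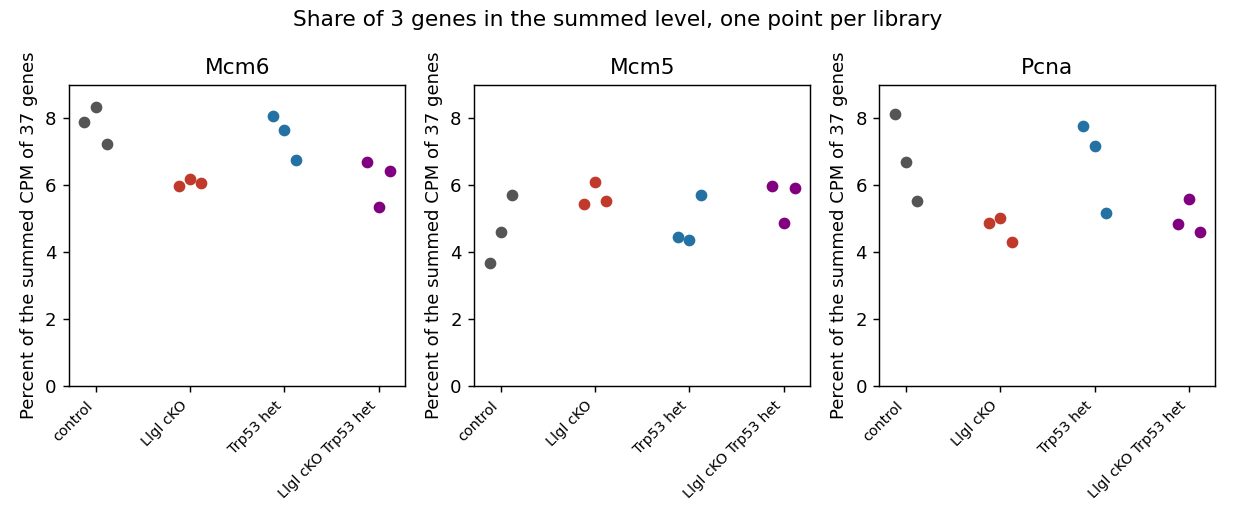
Share of Mcm6, Mcm5 and Pcna in the summed CPM of the 37 genes (y axis, percent) in each library (points) of the 4 groups. Mcm6 is lower in all 6 Llgl cKO libraries (5.37% to 6.69%) than in the others (6.75% to 8.34%), while the ranges of Mcm5 and Pcna overlap between the groups.

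Other genes of the S phase programme gave few calls with all 12 libraries. Of 32 tested G1 to S regulators, 28 were positive in the average Llgl effect (median 0.11) and 2 rose. In that comparison 49.6% of all tested genes were positive and 1.18% were called higher. Ccnd3, a D-type cyclin that drives G1 progression, was at 97.95, 83.5 and 93.9 CPM in control, 101, 86.8 and 86.6 in Trp53 het, 116, 109 and 112 in Llgl cKO and 130.5, 125 and 147 in Llgl cKO Trp53 het. All 6 Llgl cKO libraries lay above the other 6, and control 3 and Trp53 het 3 did not stand apart. Ccnd3 rose by 0.42 (SE 0.0759, adjusted p = 0.0151), and by 0.55 in Llgl cKO Trp53 het against control (adjusted p = 0.0399) and against Trp53 het (adjusted p = 0.0374); the average call was lost without control 2 (adjusted p = 0.0504). Cdkn2b, which encodes the cyclin D kinase inhibitor p15, was at 14.1, 11.4 and 9.59 CPM in control, 13.1, 12.9 and 8.05 in Trp53 het, 16.4, 17.4 and 18.1 in Llgl cKO and 17.1, 20.2 and 17.8 in Llgl cKO Trp53 het. It also rose without overlap between the 6 and 6 libraries, as 1.29% of all tested genes were, by 0.64 (adjusted p = 0.0344). That call was lost when control 2, Trp53 het 2 or any single Llgl cKO or Llgl cKO Trp53 het library was left out (adjusted p 0.0501 to 0.0973). A promoter of the cell cycle and an inhibitor of it were thus the regulators that passed.

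The other replication, checkpoint, nucleotide and histone lists had 0 calls in the average Llgl effect. Of 44 other replication factors 38 were positive (median 0.14), led by Pole3, an accessory subunit of polymerase epsilon (0.30, adjusted p = 0.214), and Tonsl, which protects stalled forks (0.13, adjusted p = 0.334). Of 16 replication checkpoint genes 11 were positive (median 0.19), and the kinase gene Wee1 (0.58, adjusted p = 0.231) and the clamp-loader-like Rad17 (-0.14, adjusted p = 0.491) had the smallest p. Of 26 other nucleotide synthesis genes 15 were positive (median 0.01). The CTP synthase gene Ctps (-0.46, adjusted p = 0.0597) and the guanine nucleotide enzyme gene Impdh1 (-0.39, adjusted p = 0.0795) had the smallest p there. The 9 tested replication-dependent histone genes were all negative (median -0.55), led by Hist1h2bc (-0.89, adjusted p = 0.212) and Hist1h1d (-1.05, adjusted p = 0.223). Most histone messages lack the poly(A) tail that these libraries select, so their counts are a partial record.

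G2 and M phase genes were positive in 30 of 30 cases, with a larger median of 0.62 and 0 calls, and Cenpa (0.80, adjusted p = 0.250) and Cdc20 (0.81, adjusted p = 0.273) had the smallest p. The ratio of their summed CPM to that of the replication genes was 0.520, 0.436 and 0.714 in control and 0.451, 0.456 and 0.875 in Trp53 het. It was 0.946, 0.696 and 0.694 in Llgl cKO and 0.777, 1.27 and 0.896 in Llgl cKO Trp53 het. Control 3 and Trp53 het 3 had the highest ratios of their groups and lay inside the range of the Llgl cKO libraries, so they stood out for the later phases as well. These lists, too, depended on the 2 libraries. Without control 3 and Trp53 het 3, the genes called higher in the average Llgl effect were 29 of 30 for G2 and M phase (median 1.78), 27 of 44 other replication factors (1 called lower), 13 of 32 G1 to S regulators, 8 of 16 checkpoint genes, 6 of 26 nucleotide synthesis genes and 0 of 7 histone genes. Of all genes tested, 8.03% were called higher in that fit. The G2 and M phase genes summed to 1850 and 2154 CPM in control 3 and Trp53 het 3. They summed to 391.3 to 499.8 CPM in the other libraries with intact Llgl. Leaving out the highest libraries raises such differences by construction, so nothing further is read from these counts either.

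Among the cell type markers, 7 genes were called in the average Llgl effect, and their part in the replication gene levels was not tested. Tchh, the trichohyalin gene of hair follicles (-2.95, adjusted p = 0.0144), and Krt71, a keratin gene of the inner root sheath (-2.94, adjusted p = 0.0289), fell. So did the adipocyte genes Fabp4 (-2.94, adjusted p = 0.0245) and Retn (-3.83, adjusted p = 0.0378) and the T cell receptor component gene Cd3g (-2.32, adjusted p = 0.0352). Of the suprabasal markers, the cornified envelope gene Ivl fell (-0.93, adjusted p = 0.0317) and ENSMUSG00000102395, 1 of the identifiers that share the filaggrin symbol Flg, rose (0.91, adjusted p = 0.0315). The annotated protein-coding Flg gene, ENSMUSG00000102439, was at -1.47 (adjusted p = 0.0909), so the counts under this symbol did not run one way. Only the call of Tchh was kept in all 12 fits that each leave out a library, while the other 6 were each lost in 6 to 10 of them (adjusted p up to 0.102). No basal keratinocyte, Langerhans cell and macrophage, fibroblast, melanocyte or erythroid marker was called, and no endothelial marker was tested.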

How the data were processed

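Stranded mRNA libraries were prepared from total epidermal RNA, per the labels. The authors deposited raw counts per gene for 12 libraries (1 table, no column unused); the submitters' processing notes name STAR, featureCounts 1.6.4, DESeq2 2.11.40.8 and GRCm38. The annotation release, strand setting and filters are not given in the sources used here. The analysis used edgeR 4.0.16 in R 4.3.3 (TMM, filterByExpr with a minimum count of 10, robust quasi-likelihood fit of 4 group means, 8 residual degrees of freedom) and Benjamini-Hochberg adjustment over 14582 genes. The p-values measure the spread between libraries, stated as separate mice. The fit was tested on simulated counts in which genes varied independently of each other. Shifts shared by many genes of a library, as seen for the replication genes, were not simulated. Positions and exon lengths come from GENCODE M21, promoters from RefSeq.

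The replication genes, lists and alternatives were chosen with earlier results of these data known. Genes given in every library were, per role, those with the highest mean CPM or the smallest p in the average Llgl effect, with Pcna and Mcm2; outside the 37, those called, or else the 2 with the smallest p per list. Tk1, Mcm10, Pole, Mcm5, Chaf1b and Pcna-ps2 were added after their values were seen. Alternatives were DESeq2 1.42.0, 2 other scalings, 2 other low-count filters, only the groups compared, a replicate block, each library left out, control 3 and Trp53 het 3 left out and, added after seeing the data, Pcna summed with Pcna-ps2. Deviations from the group mean were correlated across genes between like-numbered control and Trp53 het libraries (0.62, 0.21 and 0.82). Other pairs of groups did not all exceed 0.1. Libraries with unlike numbers were not compared and the labels give no pairing, so these values do not show that libraries were paired. Intervals have a confidence level of 95%.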

Additional observations from a re-analysis of the deposited data

How the results depend on the processing

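None of the 37 genes was called in any of the 8 comparisons with DESeq2, another scaling, another low-count filter, only the groups compared, or any single library left out. Without control 3 and Trp53 het 3 the counts called were 6 in Llgl cKO against control and 18 in Llgl cKO Trp53 het against control. They were 15 in Llgl cKO Trp53 het against Trp53 het and 32 in the average Llgl effect. Of all 14761 genes tested, 2.8%, 7.72%, 7.37% and 15.8% were called in these comparisons. Medians of the replication genes were 0.82, 0.89, 0.86 and 0.87. Control 3 and Trp53 het 3 were the highest of their groups, so that the alternative raises the medians by its construction. Over the 12 fits that each leave out a library, the median ran from -0.11 (without control 1) to 0.82 (without control 3) in Llgl cKO against control, from -0.66 (without Trp53 het 3) to 0.60 (without control 3) in Trp53 het against control, and from -0.073 to 0.90 in Llgl cKO Trp53 het against control. The range was 0.05 to 0.55 for the average Llgl effect and -0.50 (without control 3) to 0.73 (without Trp53 het 3) for the interaction. In the average Llgl effect, 13 of the 37 genes turned sign over those fits: Mcm2 (-0.024 to 0.55), Mcm6 (-0.22 to 0.22), Pold1 (-0.0093 to 0.39), Pcna (-0.27 to 0.065), Rpa1 (-0.068 to 0.19), Rrm1 (-0.0037 to 0.62), Cdc6 (-0.19 to 0.17), Mcm10 (-0.036 to 0.82), Gins3 (-0.065 to 0.45), Pola1 (-0.17 to 0.46), Prim2 (-0.0044 to 0.42), Tyms (-0.20 to 0.35) and Slbp (-0.090 to 0.24). Mcm6 was at 0.45 and Pcna at 0.22 without control 3 and Trp53 het 3. With the replicate block 0 genes were called in each comparison and the average Llgl median was 0.39; of the 15 replication genes given in every library only Mcm6 turned sign (0.050), and fitting control and Trp53 het alone with the block, added after seeing the data, gave a median of -0.0023. The block changed no call of a replication gene. With the counts of Pcna and Pcna-ps2 summed, added after seeing the data, Pcna was at -0.027. The lowest count of a replication gene was 16, and how far depth limits such genes was not tested.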
